A study of Mus musculus with 106 samples.

Results

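PWK/PhJ is an inbred strain derived from wild house mice of the subspecies Mus musculus musculus, and its liver RNA on control chow was compared with that of 8 other inbred strains. The PWK/PhJ chow set holds 6 of the 106 libraries of the series, from 3 females and 3 males, and was chosen by labelled strain and diet. The comparison set holds 47 chow libraries of NZO/HlLtJ, A/J, WSB/EiJ, C57BL/6J, CAST/EiJ, NOD/ShiLtJ, 129S1/SvImJ and DBA/2J, with 3 females and 3 males of each strain except that 2 females of 129S1/SvImJ were used. The third library labelled as a 129S1/SvImJ chow female was left out by the rule; against its label, it held 60.4 CPM of the Y-linked Ddx3y and 0.923 CPM of Xist. With it kept, the counts given below of 7387 and 1268 genes were 7388 and 1262. CAST/EiJ and WSB/EiJ are wild-derived as well, and the remaining strains are long-established laboratory or disease-model strains. All mice were otherwise untreated and 21 weeks old, and each gave 1 library. Energy in the chow came to 74% from carbohydrate, 20% from protein and 6% from fat. Mice on a diet with 60% of its energy as fat, given from 8 weeks of age, were used only to see how the PWK/PhJ difference fared in other animals. Time of entry into the study was not part of the tests, so its effect cannot be told apart from the strain, sex or diet differences. Each strain is 1 inbred genotype.

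The liver makes most plasma proteins, clears drugs and steroids, handles bile acids, lipids and iron, and does much of this work through large gene families: the cytochrome P450s, glutathione transferases, sulfotransferases, carboxylesterases and serpins. Many members of these families arose by tandem duplication, and some are made mainly by 1 sex under the pulsed or continuous pattern of growth hormone. The reference genome is that of C57BL/6J, from which PWK/PhJ differs at many positions. In counts of aligned reads, a lower transcript level and a poorer alignment of the PWK/PhJ allele cannot be told apart.

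Values are CPM, the counts of a gene per 1e6 counts of its library after trimmed-mean (TMM) correction, and are given as mean ± SD. The SD of PWK/PhJ is over 6 mice, and that of the other strains is over 8 strain means. Log2 fold changes are those of edgeR's quasi-likelihood fit, PWK/PhJ minus the mean of the 8 strains, with females and males averaged. They average logarithms over groups, so they can exceed the ratio of the mean CPM where some groups are very low. A gene was called at a Benjamini-Hochberg adjusted p under 0.05, and it was termed set apart when it was also called against each of the 8 strains separately in the same direction.

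Gene counts of the PWK/PhJ chow libraries summed to between 45264209 and 53401489, within the range of the other strains (38773478 to 63341708). Reads without a unique alignment made up 17.1% to 23.9% of the deposited counts of PWK/PhJ libraries and 13.4% to 26.5% of those of the other strains. The deposited counts do not include reads that failed to align, so a loss of PWK/PhJ reads at that step was not measured. Each PWK/PhJ chow library correlated best with a PWK/PhJ chow library of the same sex, over all libraries of both diets. Xist, the RNA of the inactive X chromosome, and the Y-linked Ddx3y matched the labelled sex in all 6. Albumin (Alb), the defining hepatocyte transcript, did not pass the test, with a log2 fold change of 0.09.

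Of 14330 genes, 7387 (51.5%) were called against the mean of the 8 strains, 3791 (26.5%) of them higher and 3596 (25.1%) lower in PWK/PhJ. The median log2 fold change of all genes was -0.01, and 2142 called genes differed by at least 1 log2 unit. Set apart were 1268 genes (8.85%), 663 (4.63%) higher and 605 (4.22%) lower than in all 8 strains. For 398 of them (2.78% of the genes tested), all 6 PWK/PhJ libraries lay outside the range of the other 47 libraries. These p-values rest on the spread between mice of a strain. With the strain as the unit (limma on 9 strain means) 203 genes were called, and against a minimum absolute log2 fold change of 0.5 there were 2764. By the same rule CAST/EiJ had 1769 genes set apart, WSB/EiJ had 1191 and NZO/HlLtJ had 558, while the other 5 strains had between 95 and 255. Against single strains, between 6333 genes (DBA/2J) and 8158 genes (WSB/EiJ) were called. The median absolute difference in log2 CPM per gene was 0.305 to DBA/2J, 0.364 to CAST/EiJ and 0.402 to WSB/EiJ.

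Among protein-coding genes named by the rule for the largest rises, the inositol-degrading enzyme Miox came first. Miox, at chr15:89334398-89337015 on the plus strand (GRCm38), stood at 56.1, 69.5 and 58.8 CPM in the 3 PWK/PhJ females and at 58.7, 65.7 and 78.7 in the males. The other 47 mice reached at most 2.36 CPM, with a median of 0.175. The sets did not overlap, and PWK/PhJ females and males covered a like range. The log2 fold change of Miox was 8.45 ± 0.17 (SE), with an adjusted p of 6.94e-35. All 50-base windows of its transcripts were unique among annotated transcripts. The rise was larger in males (9.40) than in females (7.49; adjusted p of the difference 0.00804). Other females had a mean of 0.540 CPM and other males of 0.156.

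Sptlc3, a subunit of the serine palmitoyltransferase that starts sphingolipid synthesis, was at 1.83, 1.45 and 5.26 CPM in PWK/PhJ females and at 14.7, 24.0 and 17.6 in males. No other chow mouse exceeded 0.147 CPM, so every PWK/PhJ mouse stood above the rest. The mean CPM of the other strains was close to the counting floor, and the ratio of means was 188 (95% Poisson interval of the low side 159 to 225, counting error only). The fitted log2 fold change was 7.12. Ubash3a, a regulator of T-cell receptor signalling, was at 7.92, 2.46 and 7.49 CPM in PWK/PhJ females and at 29.7, 18.1 and 17.4 in males, against 0.184 in the other strains without overlap. The keratin Krt20 was at 12.0 CPM in PWK/PhJ females and 0.734 in males, against 0.180 and 0.0389 in the other strains. Kank4os, a transcript antisense to Kank4, was at 6.55 CPM against 0.0427, and its counts cannot be told apart from those of Kank4 if strand was not used in counting.

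The falls included genes that are abundant in the other strains. Serpina1c, one of the alpha-1-antitrypsin genes that make the main plasma inhibitor of neutrophil elastase, was at 1.83, 1.27 and 1.49 CPM in PWK/PhJ females and at 3.95, 5.14 and 3.49 in males. In the other strains its strain means ran from 277 CPM (CAST/EiJ) to 1787 CPM (DBA/2J), and no library was below 232. Its log2 fold change was -8.34 ± 0.25, with an adjusted p of 2.76e-28. Sdr9c7, a short-chain dehydrogenase, was at 0.249 ± 0.148 CPM against 88.3. Enho, which encodes the secreted peptide adropin, was at 0.479 ± 0.126 against 42.9. Cyp4f14, an enzyme that hydroxylates leukotrienes and vitamin K side chains, was at 4.22 ± 2.86 against 145. None of these libraries overlapped with those of the other strains. Wfdc21, a small secreted protein with a protease-inhibitor fold, and Smad9, a mediator of bone morphogenetic protein signals, were at 4.22 ± 4.28 against 185 and at 0.233 ± 0.174 against 10.4 CPM. The ranges of single libraries overlapped in both.

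Trim12c, Gstm3 and Ugt1a10 were at the counting floor in PWK/PhJ, with no more than 3 counts in any of the 6 libraries. Trim12c, a member of the Trim5 group of antiviral restriction factors, had 8 counts in all 6 together, and its mean was 7.89 CPM in the other strains. The ratio of means was 309 (157 to 716). Gstm3 had 10 counts and a ratio of 172.5 (93.8 to 360), and Ugt1a10 had 7 counts and a ratio of 292 (142 to 727). Most of the Ugt1a10 mean came from CAST/EiJ, at 44.2 CPM, while C57BL/6J had 0.366.

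**Figure D1:**
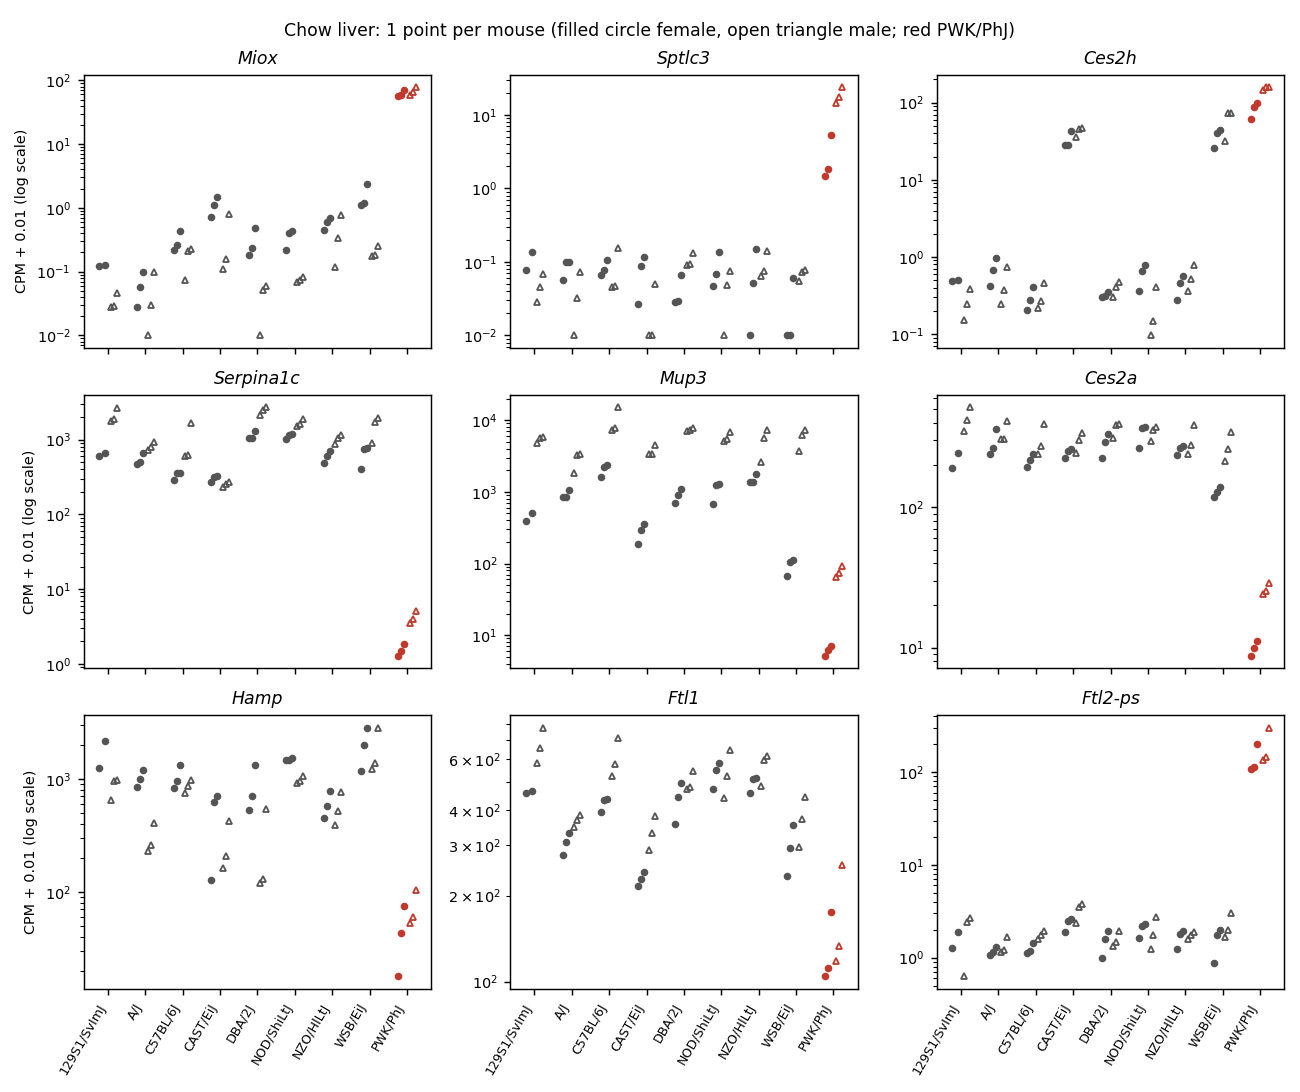
CPM plus 0.01 on a logarithmic axis for 9 genes, with 1 point per chow mouse, strains along the horizontal axis, females as filled circles, males as open triangles and PWK/PhJ in red. Miox, Sptlc3 and Ftl2-ps stand above every other mouse, Ces2h also has raised levels in CAST/EiJ and WSB/EiJ, and Serpina1c, Ces2a and Hamp stand below every other mouse.

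Several of these genes have close relatives that did not move the same way. The sequences just upstream of 3 Serpina1 genes are shown because Serpina1c was nearly absent in PWK/PhJ while the other 2 were not. In the reference, 91 bases match between the 100-base sequences of Serpina1c and Serpina1a, and 83 between those of Serpina1c and Serpina1d. The sequences do not start at matching points, so some bases without a match have no counterpart rather than a difference. All are from RefSeq on GRCm38, minus strand, and the capitals mark the 39-base run that all 5 Serpina1 genes share. Serpina1c is at chr12:103904951-103905050, Serpina1a at chr12:103863620-103863719 and Serpina1d at chr12:103773634-103773733.
Serpina1c: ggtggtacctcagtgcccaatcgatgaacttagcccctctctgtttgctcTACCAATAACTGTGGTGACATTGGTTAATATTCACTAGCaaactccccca
Serpina1a: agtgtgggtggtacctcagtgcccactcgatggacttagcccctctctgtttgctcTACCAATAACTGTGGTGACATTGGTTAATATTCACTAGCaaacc
Serpina1d: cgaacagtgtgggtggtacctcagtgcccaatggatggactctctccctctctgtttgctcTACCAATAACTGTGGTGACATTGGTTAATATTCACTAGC
These are reference letters, and the PWK/PhJ alleles were not read here.

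Serpina1d, which has the third of these sequences, was higher in PWK/PhJ, at 3452 ± 866 against 2039 ± 1175 CPM (log2 fold change 1.00, adjusted p 2.87e-13). Serpina1a was at 2302 ± 1571 against 1787 ± 808 (0.67, adjusted p 1.29e-06), Serpina1e at 1767 ± 2091 against 1971 ± 2060 (-0.86, adjusted p 5.70e-04), and Serpina1b did not pass the test (-0.18). The family as a whole summed to 12210 ± 5616 CPM in PWK/PhJ and 12220 ± 4217 in the other strains, a ratio of 0.999. Serpina1c took 8.21% of the family in the other strains and 0.0234% in PWK/PhJ, and the family sums of the PWK/PhJ libraries (7138 to 20330) lay inside the range of the other libraries. Serpina1e split by sex, at 10.5 CPM in PWK/PhJ females against 400 in other females, and at 3523 in males against 3542. By log2 fold changes, which average logarithms over groups, PWK/PhJ females were called lower (-3.93) and males higher (2.22) than the same sex elsewhere. The mean CPM of PWK/PhJ males was not above that of other males, so 2.22 is not a ratio of these means. The difference between sexes was 6.14 (adjusted p 1.84e-12), in a gene chosen after its values were seen. Only 20.7% of the 50-base windows of Serpina1c are unique in the annotated transcripts, and 77.5% of its 31-base windows occur in Serpina1a, so how the counts divide among these genes is uncertain.

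Carboxylesterases of the Ces2 group hydrolyse esters of drugs and acylglycerols, and the shares of single members differed between PWK/PhJ and the other strains. Ces2a, 59.6% of the group in the other strains, was at 8.73, 11.2 and 9.85 CPM in PWK/PhJ females and at 25.1, 23.9 and 28.7 in males, against 289 ± 45.9. Ces2h was at 89.0, 60.8 and 98.4 in females and at 158, 160 and 146 in males, and made up 54.9% of the group. The other wild-derived strains also had high Ces2h, with means of 48.4 CPM in WSB/EiJ and 38.1 in CAST/EiJ, and C57BL/6J had 0.296. Ces2e fell as well, at 33.2 ± 8.80 against 135 ± 46.9 CPM, and the 7 members together came to 216 ± 69.0 against 485 ± 75.8, a ratio of 0.445. Almost all of Ces2h (99.8% of 50-base windows) is unique sequence, and 82.7% of Ces2a is. Of the 16 carboxylesterase genes measured, 6 were called higher and 6 lower (75% called, against 51.5% of all genes). Set apart were 5 (2 higher, 3 lower, 31.2% against 8.85% of all genes). The pseudogene Ces2d-ps, at 1.24 CPM in PWK/PhJ, was 1 of the 2 set apart as higher. Ces1b, the third set apart as lower, was at 44.6 ± 8.57 against 399 CPM.

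**Figure D2:**
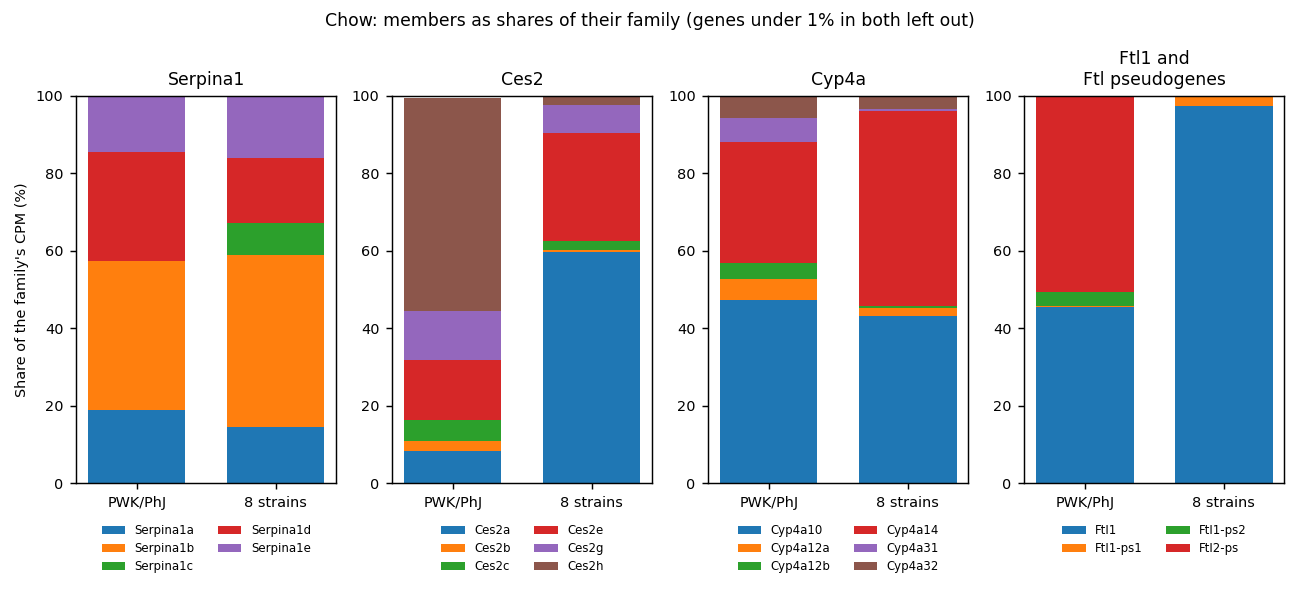
Stacked bars of each gene's share (%) of the summed CPM of its family, for PWK/PhJ and for the mean of the 8 strains on chow. Serpina1c is missing from the PWK/PhJ bar, Ces2h takes 54.9% of the PWK/PhJ Ces2 bar against 2.29% in the other strains, and Ftl2-ps takes 50.8% of the ferritin light chain bar against 0.391%.

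The major urinary proteins (Mup) are lipocalins that carry pheromones and are made mostly by the male liver. Of 20 Mup genes, 8 were called higher and 5 lower (65.0% called, against 51.5% of all genes), and 3 were set apart (15.0% against 8.85%). Mup3, 59.1% of the family in the other strains, was at 6.29, 5.15 and 7.04 CPM in PWK/PhJ females and at 74.3, 65.4 and 93.5 in males, against sex means of 908 and 5778 in the other strains. Mup3 was higher in males than in females in PWK/PhJ too, at a lower level in both sexes. Mup16 rose to 43.6 ± 40.3 against 1.62 CPM, and Mup20, which encodes the male pheromone darcin, was at 1933 ± 2578 against 772 CPM and took 51.9% of the family against 13.7%. Mup20 was not set apart, since C57BL/6J had 3776 CPM. The family summed to 3722 ± 4509 against 5655 ± 3219 CPM. Mup16 and Mup7 are mostly shared sequence, with 8.29% and 13.3% unique windows, while Mup3 has 86.7%, so the values of Mup16 and Mup7 are uncertain as values of single genes.

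The P450s of families 1 to 4 oxidise steroids, fatty acids and drugs. Among 71 such genes, pseudogenes included, 29 were called higher and 23 lower (73.2% called, against 51.5% of all genes), and 8 and 7 were set apart (21.1% against 8.85%). Those set apart included the pseudogenes Cyp2d41-ps and Cyp3a63-ps (higher) and Cyp2c52-ps (lower). The median log2 fold change of the 71 genes was 0.13. Cyp2c38 was at 2.28 ± 1.29 against 136 CPM, and Cyp2c37, an arachidonic acid hydroxylase found around the central vein, was at 22.8 ± 4.01 against 248 (called, not set apart). Cyp2c23 and Cyp2c68 went the other way, at 540 ± 141 against 141 and 279 ± 56.1 against 99.8 CPM. The summed Cyp2c level was 2517 ± 860 against 2696 ± 695 CPM, and the ratio was 0.934. Cyp3a59 was at 2.88 ± 1.66 against 50.8 CPM and its pseudogene relative Cyp3a63-ps at 59.7 ± 60.6 against 15.0. In the Cyp4a group of omega-hydroxylases, targets of the fatty acid receptor PPAR-alpha, the sum was 5370 ± 3223 against 11420 ± 3148 CPM.

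Glutathione transferases couple glutathione to reactive compounds. Of 25 members, 14 were called higher and 7 lower (84.0% called, against 51.5% of all genes), and 1 and 3 were set apart (16.0% against 8.85%). Gstk1, the mitochondrial and peroxisomal form, was at 271 ± 25.2 against 98.8 CPM without overlap. Gstp3 was at 0.980 ± 0.845 against 28.9 CPM, also without overlap, and Gstz1, which also works in tyrosine breakdown, was at 382 ± 86.7 against 632. The Gstm group summed to 493 ± 91.4 against 831 ± 228 CPM. Of 16 UDP-glucuronosyltransferases, 5 were called higher and 5 lower (62.5% against 51.5%). Ugt1a1, the bilirubin-conjugating enzyme, was at 24.5 ± 14.3 against 55.7 CPM (log2 fold change -1.28), and was set apart. Only 19.8% of its 50-base windows are unique and 58.5% of its 31-base windows occur in Ugt1a6a, so its value as a single gene is uncertain. Of 17 sulfotransferases, 6 were called higher and 4 lower, a share near that of all genes (58.8% against 51.5%). Sult5a1 was at 138 ± 57.8 against 12.3 CPM without overlap, and Sult1e1, which inactivates oestrogens, was at 0.0540 ± 0.0265 against a mean of 24.7 that came mostly from WSB/EiJ, at 188.

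Hepcidin, encoded by Hamp, is the liver hormone that blocks iron export from gut and macrophages, and it responds to iron stores through bone morphogenetic protein signals. Hamp was at 43.1, 18.02 and 75.2 CPM in PWK/PhJ females and at 60.6, 104 and 53.1 in males. Strain means elsewhere ran from 374 (CAST/EiJ) to 1893 (WSB/EiJ), and no library was below 119, so the sets did not overlap. The log2 fold change was -3.77 ± 0.36, with an adjusted p of 8.58e-12. Its duplicate Hamp2 was at 127 ± 46.1 CPM in PWK/PhJ, inside a wide range of strain means from 0.720 (WSB/EiJ) to 648 (NZO/HlLtJ). It was called higher than the mean of the 8 strains (log2 fold change 3.52, adjusted p 1.40e-15) but was not set apart. Hamp2 took 68.2% of the summed pair in PWK/PhJ and 13.8% over the other strains. The upstream sequences of the pair are shown for their likeness, 90 of 100 aligned bases in the reference, with capitals where they differ (RefSeq, GRCm38, minus strand, chr7:30944033-30944132 and chr7:30924182-30924281).
Hamp: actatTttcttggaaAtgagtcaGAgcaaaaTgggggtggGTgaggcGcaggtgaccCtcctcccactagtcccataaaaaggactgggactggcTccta
Hamp2: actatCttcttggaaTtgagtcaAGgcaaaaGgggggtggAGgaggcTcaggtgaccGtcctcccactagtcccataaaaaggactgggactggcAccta
Of the Hamp windows of 50 bases, 83.4% are unique.

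Of 20 iron and heme genes, 6 were called higher and 7 lower (65.0% called, against 51.5% of all genes), and the median log2 fold change was -0.06. Hamp2 had the largest rise on the list. Bmp6, the ligand that reports iron stores, was at 5.71 ± 0.733 against 9.62 CPM (log2 fold change -0.70). Id1 and Smad7, targets of that ligand, had log2 fold changes of -1.52 and -0.56, and the transferrin sensor Tfr2 had -0.29. None of these 4 was set apart, and Hfe, which also acts on hepcidin, was not called (-0.13). Among other genes that rose were the haemoglobin and heme scavengers Hp (0.70) and Hpx (0.92). The heavy chain of ferritin, Fth1, did not pass the test (-0.09), and neither did the iron exporter Slc40a1 (-0.03).

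The ferritin light chain gene Ftl1 also fell, and 2 of its processed pseudogenes rose. A processed pseudogene is a copy of a spliced messenger RNA inserted elsewhere in the genome, so its sequence is close to that of its parent. Ftl1 was at 111, 175 and 104 CPM in PWK/PhJ females and at 118, 133 and 255 in males, against 446 ± 112. Ftl2-ps was at 108, 200 and 113 in females and at 134, 143 and 300 in males, and no other mouse exceeded 3.82 CPM. Ftl1 and Ftl2-ps were at like levels within each PWK/PhJ mouse. The other strains had almost only Ftl1. Ftl1-ps2 rose too, at 11.6 ± 4.93 against 0.268, while Ftl1-ps1, annotated as protein-coding despite its name, fell to 0.271 ± 0.105 against 10.3. The 4 genes together came to 328 ± 136 against 458 ± 111 CPM, a ratio of 0.716. The coding sequences of Ftl1 and Ftl2-ps differ in 7 of 552 bases in the reference (98.7% identical), with a longest run without a difference of 306 bases. Ftl1 lies on chromosome 7 and Ftl2-ps on chromosome 4 (GENCODE M21, GRCm38).

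Of 416 processed pseudogenes, 323 were called (77.6% against 51.5%) and 72 were set apart (17.3% against 8.85%), of which 67 were higher and 5 lower. Set-apart processed pseudogenes numbered 89 higher and 8 lower in CAST/EiJ and 17 higher and 8 lower in WSB/EiJ. C57BL/6J, the strain of the reference, had 2 higher and 19 lower, NZO/HlLtJ had 4 and 4, and the other 4 strains had 1 to 5 higher and 1 or 2 lower. For 64 of the 67, a measured gene annotated as protein-coding shared at least 10% of 31-base windows, and the one that shared most was taken. For some of them another annotated gene is closer still in sequence. The protein-coding gene was called lower in PWK/PhJ for 31 pseudogenes, higher for 10, and did not pass the test for 23, where 25.1% of all genes were called lower and 26.5% higher. Rpl34 stands for 3 of the 31 and Rpl6, Odc1 and Ftl1-ps1 for 2 each. The median log2 fold change of the pseudogenes was 4.09 and that of their closest protein-coding genes -0.22. Gng5, a subunit of G proteins, fell to 22.7 ± 4.29 against 46.7 CPM while Gng5-ps rose to 21.8 ± 4.02 against 0.131. Rpl21, a ribosomal protein gene, was at 61.4 ± 5.86 against 98.9 CPM and Rpl21-ps15 was at 21.8 ± 2.37 against 0.0447, with a ratio of means of 487.5 (403 to 595) for the pseudogene. Selenok-ps7 rose to 10.9 ± 10.8 from 0.0586 CPM, and Selenok itself did not pass the test (0.11). Reads of parent and pseudogene in these pairs cannot be told apart where their sequences are the same.

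**Figure D3:**
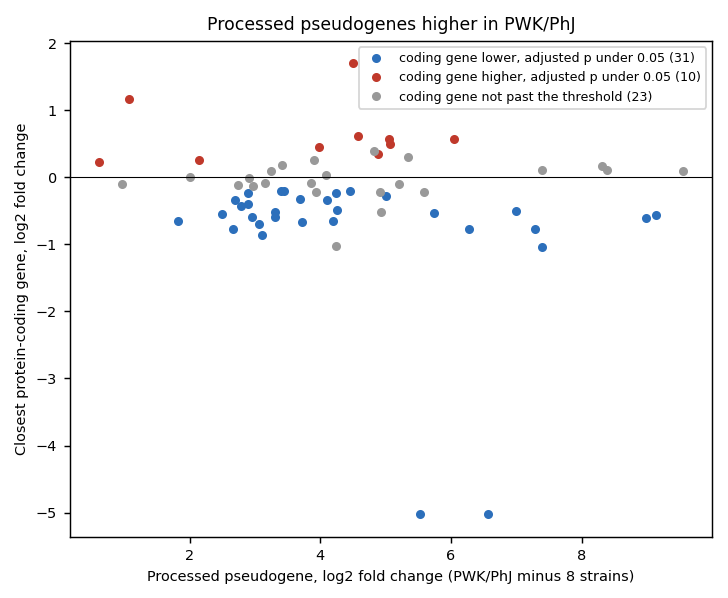
Each of 64 points is a processed pseudogene set apart as higher in PWK/PhJ, with its log2 fold change on the horizontal axis and that of the protein-coding gene of closest sequence on the vertical axis. In 31 points the protein-coding gene was called lower (blue) and in 10 higher (red), and the 2 lowest points are Ftl2-ps and Ftl1-ps2, both set against Ftl1-ps1.

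Of 29 genes of amino acid breakdown and the urea cycle, 15 were called lower and 2 higher, a share near that of all genes (58.6% called, against 51.5%), of which 25.1% were called lower and 26.5% higher. The median log2 fold change of the list was -0.23 on chow, against -0.01 over all genes, and -0.04 on the high-fat diet. Agxt, which detoxifies glyoxylate, was at 212 ± 37.6 against 407 CPM. Hgd, which opens the ring of homogentisate in tyrosine breakdown, was at 377 ± 46.7 against 678, and Ftcd, which finishes histidine breakdown, was at 308 ± 32.4 against 533. These 3 were set apart, and the PWK/PhJ libraries of Ftcd did not overlap with the rest. The urea cycle enzymes Ass1 (-0.78) and Asl (-0.77) were called lower, and Cps1 (0.03) and Otc (-0.19) were not called. Of the 2 that rose, Asns, which makes asparagine, had a log2 fold change of 2.45.

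Of 28 bile acid genes, 7 were called higher and 10 lower, a share near that of all genes (60.7% against 51.5%), with a median log2 fold change of -0.19. Cyp7b1, the oxysterol hydroxylase of the alternative synthesis pathway, was at 551, 257 and 413 CPM in PWK/PhJ females and at 1414, 1311 and 1397 in males. Every PWK/PhJ mouse was above all others of its sex, which reached 120 CPM in females and 689 in males. Klb, the co-receptor through which gut-derived FGF15 acts on hepatocytes, fell to 11.1 ± 2.78 against 27.8 CPM. Cyp7a1, the rate-limiting enzyme of the classical pathway, had a log2 fold change of -1.34 that did not pass the test.

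Of 23 fatty acid and triglyceride synthesis genes, 7 were called higher and 1 was called lower, a smaller share than of all genes (34.8% against 51.5%). Scd1, the stearoyl-CoA desaturase, was at 2889 ± 1917 against 1632 CPM, with strain means from 85.1 (WSB/EiJ) to 6780 (NZO/HlLtJ). Of 31 fatty acid oxidation genes, 7 were called higher and 5 lower (38.7% against 51.5%). Acaa1a, a peroxisomal thiolase, rose to 729 ± 137 against 348 CPM without overlap. Cyp4a14 was at 2330, 4881 and 2091 CPM in PWK/PhJ females and at 107, 338 and 295 in males, with a log2 fold change of -4.30 in males and of -0.78, not called, in females. The male minus female difference was -3.52 ± 0.51, with an adjusted p of 1.06e-05. Cyp4a31 rose to 328 ± 198 against 66.7 CPM. Abhd5, the activator of the triglyceride lipase of lipid droplets, was at 29.9 ± 3.39 against 21.1. Cholesterol synthesis and uptake had 1 gene called higher, 5 lower and 18 not called out of 24 (25% called, against 51.5%).

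Of 40 interferon-stimulated genes, 13 were called higher and 8 lower, about the share of all genes (52.5% against 51.5%). Of the 40, 27 were called in males alone (40.9% of all genes) and 15 in females alone (39.2% of all genes). The test of the difference between sexes called 14 (4.59% of all genes). On the high-fat diet 34 were called (57.9% of all genes), with a median log2 fold change of 0.75 against 0.13 on chow. Mx2, an antiviral GTPase, was at 35.6, 16.3 and 35.1 CPM in PWK/PhJ females and at 110, 68.4 and 78.3 in males, against 9.60 in the other strains, and was set apart although female values overlapped. Ifi27 fell to 18.6 ± 4.73 against 95.1 CPM and Ifih1, the cytosolic RNA sensor MDA5, rose to 40.9 ± 12.0 against 25.1. Of 25 acute phase genes, 4 were called higher and 9 lower, again about the share of all genes (52%). Orm1, a plasma glycoprotein that rises in inflammation, was at 20.2, 12.4 and 27.1 CPM in PWK/PhJ females and at 63.6, 73.4 and 97.9 in males, against 544, and Serpina3m was at 157 ± 58.0 against 580. The fibrinogen genes Fga (-0.83), Fgb (-0.63) and Fgg (-0.71) were called lower, and Saa1 (-0.76) and Saa2 (-1.17) did not pass the test. Of 25 MHC genes, 11 were called higher and 11 lower (88.0% against 51.5%), with 1 of them, H2-Q4, set apart (4% against 8.85%) at 14.9 ± 1.77 against 35.8 CPM. These genes vary in sequence and number between haplotypes, and the part of alignment in their counts was not tested.

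Stress response genes hardly differed as a list, with 1 called higher and 1 lower out of 30 (6.67% against 51.5%). The count was 4 or 5 when DBA/2J, WSB/EiJ or 1 PWK/PhJ male (replicate 1) was left out. Nqo1, a quinone reductase induced by oxidative stress, was at 13.6 ± 3.57 against 7.52 CPM, and Txnrd1 had a log2 fold change of -0.37. Clock genes had 3 called higher and 2 lower out of 19 (26.3% against 51.5%), led by Bhlhe41 (1.01) and Per2 (-0.82). Of 317 zinc finger genes named Zfp, 73 were called higher and 71 lower (45.4% against 51.5%), and 23 were set apart (7.26% against 8.85%). Zfp605, Zfp872, Zfp945 and Zfp971 were the 4 largest, all lower, with PWK/PhJ means from 0.0318 to 1.08 CPM.

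Sex changed the size of the PWK/PhJ difference for 658 genes (4.59%) by the direct test (2.27% with a higher and 2.32% with a lower value in males), the male minus female difference of PWK/PhJ against that of the other 8 strains. In females alone 5623 genes (39.2%) were called, 20.8% higher and 18.5% lower. In males alone 5860 (40.9%) were called, 21.7% higher and 19.2% lower, with 3831 called in both in the same direction and 54 in opposite directions. Of the 1268 genes set apart, 126 passed the direct test of the sexes. The count of 658 fell to 306 without PWK/PhJ female 2 and to 407 without PWK/PhJ male 2. Among 21 male-biased liver genes, 11 were called higher and 8 lower (90.5% called, against 51.5% of all genes). Among 21 female-biased ones 8 were called higher and 7 lower (71.4%). Of each list 19.0% were set apart, against 8.85% of all genes.

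Sult2a1, a sulfotransferase of bile acids and steroids known as female-specific in mouse liver, was made by PWK/PhJ males. It was at 42.6, 80.1 and 207 CPM in the 3 males, while none of the 24 males of other strains exceeded 0.537. PWK/PhJ females, at 820, 1300 and 886 CPM, were also above all other females, which reached 717. The male minus female difference of log2 fold changes was 6.28 ± 0.64, with an adjusted p of 5.57e-09. A share of 66.8% of its 50-base windows is unique. Cyp2c40, which in other strains had a mean of 137 CPM in females and 6.45 in males, was at 125, 76.9 and 125 in PWK/PhJ females and at 112, 101 and 101 in males, so that the sexes of PWK/PhJ were alike in level. CAST/EiJ males came nearest, at 25.9 to 56.6 CPM, and males of the other 7 strains reached 7.54. Its difference between sexes was 6.22 ± 0.47, with an adjusted p of 1.84e-12, and 39.7% of its windows are unique.

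Cyp4a12b, a male-biased omega-hydroxylase, had the opposite sign. PWK/PhJ females were at 112, 102 and 108 CPM, and no female of another strain exceeded 22.7. The 3 CAST/EiJ females were at 10.7 to 22.7, and females of the other 7 strains reached 1.08. Of its 50-base windows 50.5% are unique, and 62.9% of its 31-base windows occur in Cyp4a12a. PWK/PhJ males, at 323, 313 and 344, lay within the range of other males, which reached 350. The difference was -6.41 ± 0.59, with an adjusted p of 9.85e-10. Ugt2b38, a glucuronosyltransferase, was at 36.8, 57.6 and 39.2 CPM in PWK/PhJ females and at 104, 81.7 and 96.5 in males. CAST/EiJ came nearest, at 8.31 to 10.2 CPM in females and 38.5 to 49.3 in males, and females of the other 7 strains reached 0.655. Of its 50-base windows 62.6% are unique, and 44.1% of its 31-base windows occur in Ugt2b5. Moxd1, a monooxygenase-like protein, was at 48.9, 13.4 and 149 CPM in PWK/PhJ males and at 0.0725 or less in females, near the counting floor. Other males spread from 0.108 to 384. All CAST/EiJ males, at 318 to 384 CPM, were above every PWK/PhJ male, and DBA/2J males were at 20.7 to 194. Cyp2b10 was at 47.7, 74.4 and 43.2 CPM in PWK/PhJ females and at 0.0183 to 0.525 in males, the lowest of them near the counting floor. The difference of -5.01 had an adjusted p of 0.00212.

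Not every female-biased gene was raised. Cux2, a transcription factor known as female-specific in mouse liver, was at 7.98, 0.971 and 2.27 CPM in PWK/PhJ females, and other females had a median of 23.6 and a lowest value of 6.87, so 1 PWK/PhJ female lay inside their range. Abcd2, a peroxisomal fatty acid transporter, was at 17.1 ± 20.6 against 56.1 CPM over both sexes. Both were set apart as lower.

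**Figure D4:**
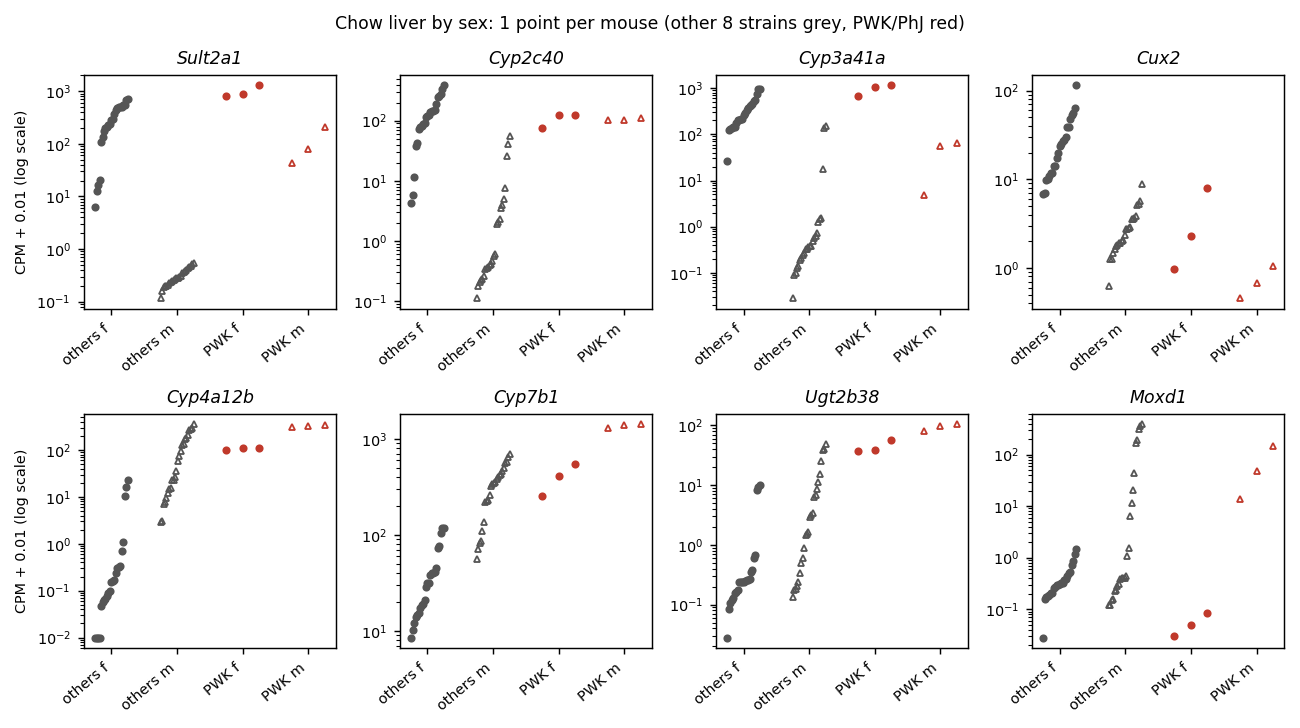
CPM plus 0.01 on a logarithmic axis for 8 genes, with 1 point per chow mouse grouped as other females, other males, PWK/PhJ females and PWK/PhJ males (red). PWK/PhJ males stand above all other males for Sult2a1 and Cyp2c40, and PWK/PhJ females stand above all other females for Cyp4a12b, Cyp7b1 and Ugt2b38.

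In bulk liver, fewer cells of a type and less RNA per cell cannot be told apart. Of 10 endothelial markers, 5 were called higher and 1 lower (60.0% against 51.5%), and 4 were set apart (40% against 8.85%). Lyve1, a hyaluronan receptor of sinusoidal endothelium, was at 56.9 ± 21.9 against 14.9 CPM, Cdh5 at 41.9 ± 4.32 against 26.8, Tek at 22.4 ± 2.503 against 14.3 and Oit3 at 47.1 ± 3.58 against 34.4. Pecam1 (0.05) and Clec4g (-0.21) did not pass the test, and the markers summed to 458 to 544 CPM in PWK/PhJ and to 242 to 603 in the other libraries. Of 12 macrophage markers, 5 were called lower and 1 higher, about the share of all genes (50% against 51.5%). Marco, a scavenger receptor, was at 0.334 ± 0.253 against 6.86 CPM and Lyz2 at 9.02 ± 3.27 against 52.1, while Clec4f, specific to Kupffer cells, was called higher (0.44). The macrophage sums were 347 to 478 CPM in PWK/PhJ and 180 to 1331 elsewhere.

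Of 11 stellate cell and fibroblast markers, 5 were called lower and the other 6 were not called (45.5% called, against 51.5%), with Dcn set apart at 72.3 ± 18.8 against 142 CPM. Their sums ran from 209.8 to 400.1 CPM in PWK/PhJ and from 220.8 to 838.9 elsewhere. Of 10 B and plasma cell markers, 5 were called higher and the other 5 were not called (50% against 51.5%), and they summed to 309.8 to 421.4 CPM, within the 195.3 to 589.3 of the other libraries. The plasma cell genes Jchain (0.98), Igkc (0.85) and Mzb1 (1.92) were called higher and the B-cell marker Ms4a1 (-0.17) was not called. Of 7 T and NK markers measured, Cd8a (1.85), Gzmb (1.46), Gzma (1.40) and Cd4 (0.74) were called higher and Prf1 (-1.66) lower (71.4% against 51.5%), and the 7 summed to 3.56 to 7.47 CPM, within the 0.723 to 13.9 of the other libraries. Of 9 neutrophil markers, 1 was called higher, 1 lower and 7 not called (22.2% against 51.5%), with a median log2 fold change of -0.65. Ly6g, the surface marker of neutrophils, was at 2.14 ± 1.19 against 0.0691 CPM, and the 9 markers together came to 2.02 to 5.09 CPM, within 0.662 to 271 elsewhere. The part of cell composition in the genes above was not tested.

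The same strain comparison in 52 mice on the high-fat diet, none of which entered the chow tests, had 3 mice in each group except 1 NZO/HlLtJ male. That male stands alone for its group there and in the test between diets, and is assumed to vary like the other groups. The comparison called 8294 genes (57.9%; 30.2% higher and 27.7% lower) and set 1441 (10.1%) apart. All 1268 genes set apart on chow had the same sign on the high-fat diet, 1261 were called again against the mean of the 8 strains, and 899 were set apart again. Miox was at 68.8 ± 7.35 against 0.195 CPM on the high-fat diet, Serpina1c had a log2 fold change of -8.12 and Ces2a of -3.86. The test of the difference between diets called 275 genes (1.92%; 1.02% with a higher and 0.900% with a lower value on the high-fat diet), 57 of them among those set apart on chow, and 157 without the high-fat PWK/PhJ male 1.

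The Hamp difference depended on diet. On the high-fat diet it was at 190 ± 161 CPM in PWK/PhJ and 547 in the other strains, so that the gap narrowed from a log2 fold change of -3.77 to -1.21 (difference 2.55 ± 0.41, adjusted p 7.51e-05). Cyp3a41a, a steroid hydroxylase of the female liver, was 507 ± 535 against 186 CPM on chow and 345 ± 386 against 144 on the high-fat diet. Its log2 fold change on chow was 3.86, and the difference between diets was -2.77 (adjusted p 2.12e-04). The mean CPM did not shift by that much. Other males on chow had a median of 0.36 CPM, and the log2 average gives such low groups equal weight. Only 1.39% of the windows of Cyp3a41a are unique, so its counts cannot be told apart from those of Cyp3a41b. Cyp26a1, which degrades retinoic acid, had 1.15 ± 0.746 against 5.51 CPM on chow and 2.75 ± 1.90 against 2.10 on the high-fat diet, and the difference was 3.02 (adjusted p 8.08e-04). Mup3 was lower on both diets, with log2 fold changes of -6.42 on chow and -5.42 on the high-fat diet (difference 1.00, adjusted p 0.00778).

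**Figure D5:**
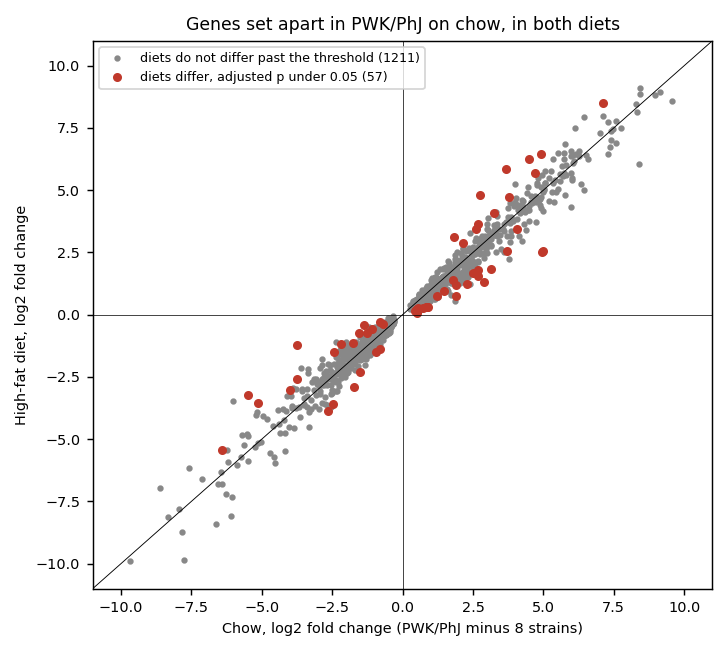
Log2 fold change of PWK/PhJ against the mean of the 8 strains for the 1268 genes set apart on chow, with chow on the horizontal axis, the high-fat diet on the vertical axis and a line of equality. All points lie in the quadrants of equal sign, and the 57 genes in which the diets differed are red.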

How the data were processed

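Per the labels, each library was prepared from the liver mRNA of 1 mouse with SMARTER chemistry. The values deposited by the authors are whole-number read counts for each gene, although TMM normalisation is part of the table's name. FastQC, STAR 2.73a and edgeR 3.24.3 are named in the submitters' processing notes; the counting tool, strand use and genome build are not given in the sources used here. Rows of reads outside genes were used only as technical measures. The 14330 genes were tested with edgeR 4.0.16 in R 4.3.3 (TMM factors, quasi-likelihood F test, Benjamini-Hochberg over all genes, threshold 0.05) on 53 chow libraries in 18 groups of strain and sex. Each of the 8 comparison strains had equal weight. High-fat libraries (52) had their own fit, and the diets were compared in a fit of 105. Symbols and biotypes came from GENCODE M21 (14321 genes matched). Named genes were the 12 largest rises and falls at 5 CPM or more among genes set apart, up to 4 set-apart members of each list or otherwise up to 2 called ones, and 3 at each end of the sex and diet tests. Other members of lists and families named in the text were chosen after their values were seen. The members and lists were chosen with earlier results of these data known. The same fit was also run on simulated counts with known changes, and its outcome is not reported here. Alternatives were limma 3.58.1, DESeq2 1.42.0, other scaling, filters and strains or libraries left out. Nothing in the labels pairs mice, and p-values measure the spread between mice. Some members of the lists and some sequences are not reported here.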

Additional observations from a re-analysis of the deposited data

Results flagged for a closer look

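The strain difference differed between sexes, by the direct test (male minus female difference of log2 fold change), for Moxd1 (7.44), Sult2a1 (6.28), Cyp2c40 (6.22), Gm48199 (-3.82), Cyp2b10 (-5.01) and Cyp4a12b (-6.41). The value of Gm48199 did not pass the threshold in 5 of the 6 fits that left out 1 PWK/PhJ chow library. The strain difference differed between diets (high-fat minus chow) for Gm48199 (3.24), Cyp26a1 (3.02), Hamp (2.55), Sult3a1 (-2.34), Cyp3a63-ps (-2.43) and Cyp3a41a (-2.77).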

How the results depend on the processing

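With RLE size factors, DESeq2, limma-trend, protein-coding genes only, 1 fit of both diets or the left-out 129S1/SvImJ library kept, each count of calls stayed within 1.5 times. Leaving out genes under the 25th percentile of expression gave 794 genes set apart, with fewer genes tested, and turned the split from 663 higher and 605 lower to 378 and 416. A minimum absolute log2 fold change of 0.5 left 2764 genes called and ended the call of 15 of 103 named values, among them Abhd5, Per2, Txnrd1, Cdh5 and Oit3. The strain as unit left 203 (1677 at an unadjusted p under 0.05). Of 103 named values, 25 kept their side of the threshold with the strain as unit. No gene of the iron and heme, bile acid, interferon-stimulated, acute phase, amino acid or male-biased lists was called that way. Hamp, Ftl1, Cyp7b1, Mx2 and Orm1 were thus not called with the strain as unit. Leaving out each of the 53 chow libraries in turn gave 6716 to 7622 calls on chow, 4603 to 5915 in females, 4551 to 6099 in males, 1181 to 1327 genes set apart, and 306 to 844 sex differences. Leaving out only PWK/PhJ libraries in turn gave 7587 to 7937 calls on the high-fat diet (6 fits, all below the 8294 with every library) and 157 to 290 diet differences (12 fits). Leaving out single libraries ended the call of 5 genes: Bhlhe41 (without PWK/PhJ male 3, adjusted p 0.0617), Gm48199, Pnpla3, Cyp2e1 and Ddx3y. Cyp2e1 and Ddx3y also lost it with the left-out library kept and Pnpla3 with limma-trend. Leaving out 1 strain ended the call of Cdh1 (without A/J or NZO/HlLtJ) and Cyp2e1 (without CAST/EiJ or DBA/2J). No value reversed under these alternatives. No paired analysis was possible because the labels give mice animal numbers that no 2 groups share.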
